A study of Mus musculus with 18 samples.

Results

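The comparison described here set mouse neurons in culture that received HCA alone against neurons that received nothing, both without adaptaquin. HCA is homocysteic acid, a relative of glutamate, and adaptaquin is an inhibitor of the HIF prolyl hydroxylases, the enzymes through which cells sense oxygen. The arrays were chosen by their titles: 2 HCA arrays, replicates 1 and 2, and 3 untreated arrays, replicates 1 to 3, which makes 5 of the 18 arrays of the series. The title of a further HCA array, replicate 3, calls it an outlier. It took part in the normalization but in no test of the fit described, and its values are given as a check. All 5 arrays had 0 µM adaptaquin, and the 2 groups differed in HCA alone. The whole series holds 6 groups, with adaptaquin at 0, 0.1 or 1 µM, each with and without HCA. The sources used here do not give strain, age, brain region, culture time, or the dose and duration of HCA. Nor do the labels say that the replicates were separate cultures, so the p-values measure the spread between arrays, which may be technical. This spread was estimated on 17 arrays of the 6 groups, with and without adaptaquin, and not on the 5 arrays alone.

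Homocysteic acid competes with cystine at the exchanger that brings cystine into the cell in return for glutamate. In immature cortical neurons this is known to starve the cell of cysteine, lower glutathione and lead to a slow oxidative death. Shortage of amino acids is sensed by the kinase GCN2, which slows translation in general while raising that of the transcription factor ATF4. ATF4 then induces amino acid transporters, enzymes that make amino acids, tRNA synthetases and its own partners, among them CHOP. Glutamate-like compounds can also act on neuronal glutamate receptors, whose activity induces immediate early genes such as Fos and Npas4.

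On the 17 arrays not titled as an outlier, the upper quartile of probe intensity was 332.9 to 563 and 42.83% to 47.57% of probes were detected. The outlier array had an upper quartile of 241.5 and 40.92% of probes detected, the lowest of the 18 on both counts. The label of neurons was checked against marker genes. Of 18 neuron markers on the arrays, 14 passed the filter, with mean log2 intensities of 10.67 to 10.88 on the untreated and 10.68 to 10.81 on the HCA arrays. Probes for the neuron markers Nefh, Nefl, Neurod6 and Snap25 were not detected on the 5 arrays. Markers of other cells were present too: 9 of 13 astrocyte markers, 8 of 13 progenitor markers, 7 of 13 oligodendrocyte markers and 10 of 15 microglia markers were detected on at least 1 of the 5 arrays. Not detected on any of them were the astrocyte markers Gfap, S100b, Ntsr2 and Slc4a4, the progenitor markers Hopx, Pax6, Prom1, Rest and Sox3, the oligodendrocyte markers Olig2, Mag, Mal, Mobp, Mog and Opalin, and the microglia markers Ctss, Itgam, P2ry12, Ptprc and Tmem119. Fewer cells of a type and less RNA per cell cannot be told apart in such bulk samples.

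Of 8922 genes tested, 141 rose and 111 fell with HCA in limma's moderated test with the replicate number as a block (adjusted p under 0.05, two-sided). That is 1.58% of the genes called up and 1.24% called down, or 2.82% in all. The spread in this test came from 17 arrays of the 6 groups. With the 5 arrays alone and the block, 25 genes rose and 1 fell. In the fit on 17 arrays, 669 genes were higher and 833 lower at an unadjusted p under 0.05. The rises were larger: 41 risers changed at least 2-fold against 9 fallers, and the median log2 change was 0.71 for risers and -0.58 for fallers. Both HCA arrays lay above all untreated arrays for 136 of the 141 risers, against 15% of all genes, and below them for 101 of the 111 fallers, against 16.8%. In both same-numbered pairs, HCA 1 against untreated 1 and HCA 2 against untreated 2, all 252 called genes had the called sign. The fit that chose these genes used the same arrays and pairs, so these counts describe the genes and lend the calls no support. The median of the risers was 0.58 in pair 1 and 0.75 in pair 2, and that of the fallers -0.55 and -0.64. The outlier array, which the fit did not use, exceeded untreated array 3 for 137 of the risers (50.3% of all genes did) and lay below it for 98 of the fallers (49.5% of all genes did). Untreated array 3 also took part in the choice of the called genes.

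**Figure D1:**
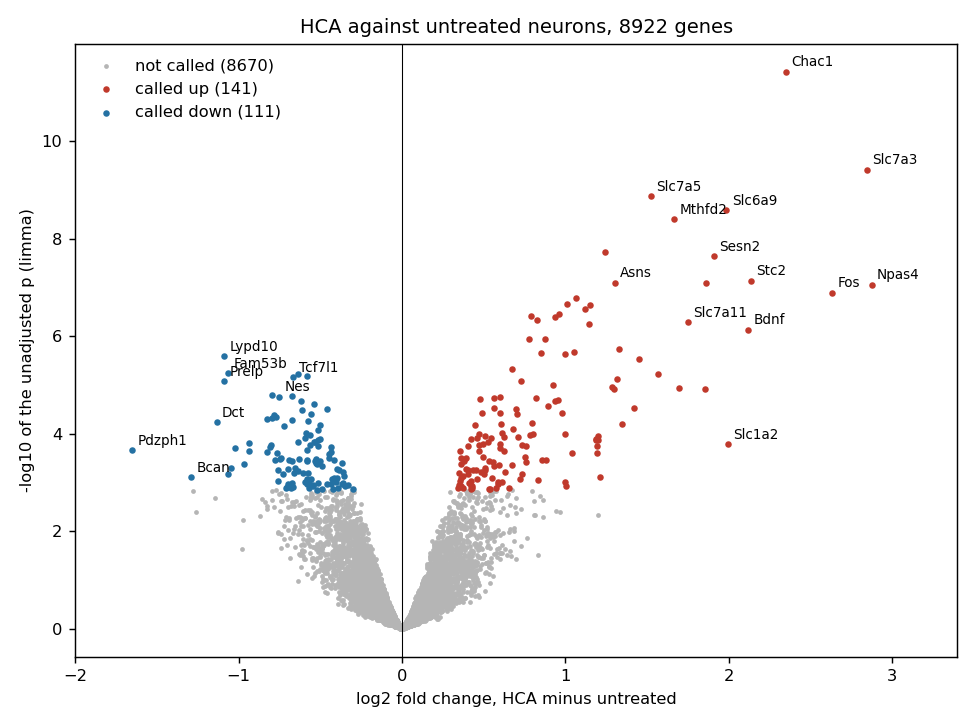
Log2 fold change of HCA minus untreated (x axis) and -log10 of the unadjusted p from limma (y axis) for the 8922 genes tested; each point is a gene, red for the 141 called up and blue for the 111 called down. Chac1 has the smallest p, and the rises reach further from 0 than the falls.

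The counts moved with the arrays and the scaling. Without HCA array 1, which leaves HCA array 2 alone in its group and assumed to vary like the others, 55 genes rose and 15 fell, and without HCA array 2 the counts were 44 and 12. Leaving out untreated array 2 gave 77 and 32, and leaving out untreated array 1 gave 115 and 69. With median scaling in place of quantile normalization 86 genes rose and 37 fell, so that risers were 69.9% of the calls against 56% in the fit described. Of the risers, 35 stayed called whichever of the 5 arrays was left out, and of the fallers 4, namely Fam53b, Lypd10, Prelp and Sox21. Without the block, 54 rose and 13 fell, and 251 of the 252 genes kept their sign. Of the 4 fallers just named, only Fam53b was called without the block (adjusted p = 0.016 in limma). Prelp, Lypd10 and Sox21 were not (adjusted p = 0.63, 0.79 and 0.17 in limma).

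**Figure D2:**
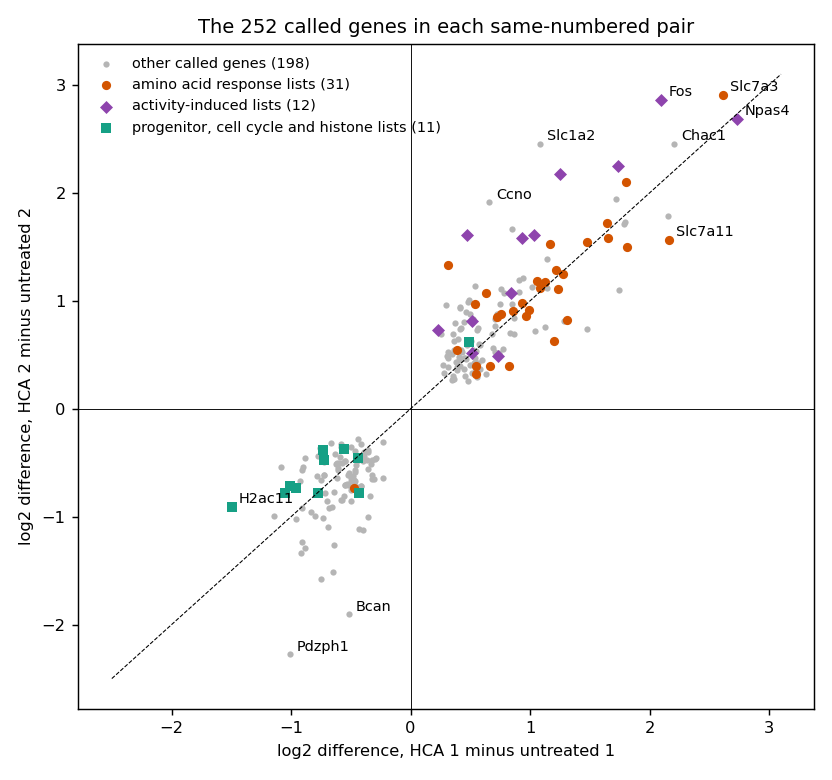
Log2 difference of each of the 252 called genes in pair 1 (HCA 1 minus untreated 1, x axis) and pair 2 (HCA 2 minus untreated 2, y axis), with a dashed line of equal change. Every point lies in the quadrant of its call. Fos, Slc1a2 and Bcan moved further in pair 2 than in pair 1.

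The 4 lists of regulators, transporters, enzymes and cytosolic tRNA synthetases, here called the amino acid response lists, held 30 of the 141 risers. Of the 141, 68 belonged to any of 56 gene lists. These 4 lists held 66 tested genes, of which 30 rose and 1 fell, while 1.58% of all genes rose and 1.24% fell. The arrays measured neither amino acid levels nor kinase activity, so a shortage of amino acids was not tested. Chac1, which breaks down glutathione, is a known target of ATF4 and CHOP but was in none of these 4 lists, and it had the smallest adjusted p of the table. Its log2 intensity was 10.39, 10.10 and 10.46 on untreated arrays 1 to 3 and 12.59 and 12.56 on HCA arrays 1 and 2. The groups were separated by about 2 log2 units, and the outlier array read 12.93. It rose by 2.35 ± 0.092 (SE, adjusted p = 3.4e-08), which is 5.1-fold. The lists were drawn up with rises of these genes already known, so their counts describe the response and are no independent evidence of it. The count of 30 was 21 without HCA array 2 and 22 without HCA array 1, and 28, 25 and 29 without untreated arrays 1, 2 and 3.

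Of 16 regulators of the ATF4 and CHOP response, 7 rose (43.8%, against 1.58% of all genes), 1 fell and 8 were not called. Their median log2 change was 0.64 against -0.013 over all genes. Atf4 itself read 6.92, 6.37 and 7.51 untreated and 8.57 and 7.96 with HCA, and rose by 1.45 ± 0.18 (adjusted p = 8.6e-04). The 2 HCA arrays were above all untreated arrays, though HCA 2 stood closer to untreated 3 than to HCA 1. Ddit3, which encodes CHOP, rose by 0.79 ± 0.14 (adjusted p = 0.011), from 8.82, 8.62 and 8.70 to 9.36 and 9.60. Jdp2, a bZIP repressor that pairs with ATF and Jun proteins, rose by 1.33 ± 0.16, with untreated values of 6.71, 6.70 and 6.80 and HCA values of 7.99 and 7.95. Cebpb, another bZIP factor, Nupr1, a small stress-induced chromatin protein, and Atf5 rose by 0.92 ± 0.13, 1.20 ± 0.22 and 0.51 ± 0.092. For Atf5 the groups overlapped, since untreated array 3 read 10.95 and HCA array 2 read 10.81. Trib3, a pseudokinase that restrains ATF4 and CHOP, was not detected on any untreated array and on 1 HCA array, and was at least 1.04-fold higher (adjusted p = 0.021). Atf3, not detected on untreated arrays, was at least 1.36-fold higher but not called (adjusted p = 0.083). The eIF2 phosphatase subunits Ppp1r15a (0.57 ± 0.14, adjusted p = 0.051) and Ppp1r15b (0.70 ± 0.18, adjusted p = 0.059) were not called either. The eIF2 kinase gene Eif2ak2, which encodes the RNA-sensing kinase PKR, fell by 0.57 ± 0.13 (adjusted p = 0.030). The calls of Atf4, Jdp2 and Cebpb held with any 1 of the 5 arrays left out. Without the block the call of Atf4 was lost (adjusted p = 0.087 in limma), while those of Jdp2 and Cebpb stayed. Those of Ddit3 and Nupr1 were lost without HCA array 1, HCA array 2 or untreated array 2, that of Atf5 without either HCA array, and that of Eif2ak2 held only without untreated array 3. The 7 rises became 3 without HCA array 2 and 4 without untreated array 2.

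Amino acid transporters had the highest median of the 56 lists, 0.66. Of 13 tested members 7 were called up (53.8%, against 1.58% of all genes) and 0 down. Slc7a3, a carrier of arginine and lysine, read 9.38, 8.75 and 8.42 untreated and 11.99 and 11.66 with HCA, a rise of 2.85 ± 0.16 (adjusted p = 1.7e-06). For Slc6a9, which takes up glycine, the rise was 1.98 ± 0.13 (adjusted p = 5.8e-06), and for Slc7a5, a carrier of large neutral amino acids, 1.52 ± 0.097 (adjusted p = 4.0e-06). Slc7a11 encodes the cystine and glutamate exchanger that homocysteic acid competes for. It read 5.75, 6.08 and 6.06 untreated against 7.91 and 7.64 with HCA and rose by 1.75 ± 0.19 (adjusted p = 2.2e-04). Its groups were separated, and the outlier array at 7.42 was also above every untreated value. Slc3a2, the chain that Slc7a5 and Slc7a11 share, rose by 1.32 ± 0.18. Slc1a4, which carries alanine, serine and cysteine, rose by 1.06 ± 0.10, and the glutamine carrier Slc38a2 by 0.42 ± 0.098 (adjusted p = 0.039). These calls held with any 1 of the 5 arrays left out, except that of Slc38a2, which held only without untreated array 3. The members not called included Slc7a8 (0.66 ± 0.18), Slc6a15 (0.47 ± 0.20) and Slc38a3 (-0.27 ± 0.14). The taurine transporter Slc6a6, which was in no list and chosen after its values were seen, rose by 0.42 ± 0.078.

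Among 19 enzymes of amino acid synthesis and folate-linked carbon metabolism, 9 rose (47.4%, against 1.58% of all genes), 0 fell and the median was 0.48. Mthfd2, a mitochondrial folate enzyme, rose by 1.67 ± 0.12 (adjusted p = 7.1e-06), from 7.99, 7.56 and 8.05 untreated to 9.64 and 9.29. Shmt2, the mitochondrial enzyme that splits serine, rose by 1.24 ± 0.099 (adjusted p = 2.8e-05) and Aldh1l2, a further mitochondrial folate enzyme, by 0.86 ± 0.18. The cytosolic counterparts had values of -0.0045 ± 0.23 for Shmt1, -0.089 ± 0.12 for Mthfd1 and -0.27 ± 0.10 for Aldh1l1, none of them called. They were picked by hand as counterparts. Asns, asparagine synthetase, read 12.18, 11.88 and 11.87 and 13.39 and 13.17 and rose by 1.30 ± 0.12 (adjusted p = 7.1e-05). Its groups were more than 1 log2 unit apart in both pairs. Phgdh, which commits glucose carbon to serine, rose by 0.98 ± 0.16, while Psat1, the next enzyme of that route, had 0.54 ± 0.13 (adjusted p = 0.051) and was not called. Aldh18a1, for proline, Gpt2, a mitochondrial alanine transaminase, and Bcat1, a branched-chain transaminase, rose by 1.14 ± 0.12, 1.01 ± 0.100 and 0.47 ± 0.084. A second Bcat1 probe had the opposite sign, and the calls of Phgdh and Bcat1 were lost without HCA array 1. That of Aldh1l2 was lost without HCA array 1, HCA array 2 or untreated array 1. Cth, which makes cysteine from cystathionine, was not detected on any untreated array, read 6.66 and 6.36 with HCA, and was at least 1.80-fold higher (adjusted p = 0.0016). On the outlier array Cth was at 4.86, among the untreated values of 4.85, 4.86 and 4.77. Gldc, which cleaves glycine in mitochondria, was outside the lists and chosen after its values were seen, and fell by 0.51 ± 0.098 (adjusted p = 0.014).

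Cytosolic aminoacyl-tRNA synthetases, which load amino acids onto tRNA, rose in 7 of 18 cases (38.9%, against 1.58% of all genes). They had 0 falls and a median of 0.48. Their mitochondrial counterparts had 0 of 12 called in limma, against 2.82% of all genes, and a median of -0.026. The largest mitochondrial values were 0.36 ± 0.12 for Ears2 and -0.37 ± 0.10 for Lars2. No test of the difference between these lists was made. The risers were Mars1 (0.87 ± 0.10, adjusted p = 4.1e-04), Nars (0.85 ± 0.10), Aars (0.83 ± 0.087), Iars (0.71 ± 0.11), Lars (0.61 ± 0.11) and Gars (0.48 ± 0.072), besides Cars. Aars read 11.91, 11.66 and 11.87 untreated and 12.67 and 12.53 with HCA, and Gars, the brightest of them, 14.08, 14.02 and 13.97 and 14.47 and 14.56. Both groups were tight, so that a change of under 0.5 in Gars stood outside the spread. Cars was not detected on any untreated array and was at least 1.73-fold higher. Members below or near 0 were Rars (-0.11 ± 0.085), Wars (-0.14 ± 0.084), Qars (-0.22 ± 0.070) and Kars (0.050 ± 0.10), while Yars (0.67 ± 0.17, adjusted p = 0.050), Eprs (0.52 ± 0.14) and Tars (0.49 ± 0.13) were positive and not called. Without HCA array 2 the 7 calls became 4. Mars1, Nars and Aars held with any 1 of the 5 arrays left out, and Cars in none of these fits. Without the block Nars was not called (adjusted p = 0.13 in limma).

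Brakes on mTORC1, the kinase that drives translation when amino acids are plentiful, rose in 3 of 15 cases (20%, against 1.58% of all genes). The list median was -0.055, and 8 of the 15 were below 0. Sesn2, which senses leucine, read 5.77 to 6.34 on the untreated arrays and 8.06 and 7.94 with HCA and rose by 1.91 ± 0.15 (adjusted p = 3.0e-05), or 3.75-fold. Eif4ebp1, which blocks cap-dependent initiation while mTORC1 is off, read 10.23, 10.15 and 9.90 and 12.02 and 11.88 and rose by 1.86 ± 0.17 (adjusted p = 7.1e-05). Ddit4, an activator of the mTORC1 inhibitor TSC, rose by 0.78 ± 0.089 (adjusted p = 4.1e-04). These 3 calls held with any 1 of the 5 arrays left out. Without the block that of Ddit4 was lost (adjusted p = 0.12 in limma). The related genes Sesn1, Eif4ebp2 and Ddit4l had -0.27 ± 0.092, -0.20 ± 0.14 and 0.076 ± 0.17 and were not called. Translation factors themselves had a median of 0.00265, with 1 of 33 called up (3.03%, against 1.58% of all genes). It was the eIF2 subunit gene Eif2s2 (0.47 ± 0.090, adjusted p = 0.014).

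ATF4 binds with C/EBP proteins at a composite site, and the risers were searched for it in RefSeq promoters (GRCm38.p6), from 250 bases before to 50 after each gene's start. The loose form of the site, TGATGNAAN on either strand, was found in 19 of the 120 called-up genes with a promoter in the table (15.8%), in 1 of 95 called-down genes (1.05%) and in 206 of 7280 tested genes (2.83%). Among all 32851 promoters of the table, 3.95% held it. The exact form TGATGCAAT, a subset of the loose one, was in 3 risers, 0 fallers and 0.137% of tested genes. The cAMP response element TGACGTCA was in 5% of risers, 3.16% of fallers and 3.76% of tested genes, and the AP-1 site TGANTCA in 6.67%, 7.37% and 5.95%. The loose composite site was in 9 of 23 risers of the amino acid response lists and in 10 of 97 other risers. A match is a run of letters and not a measured binding site. No test was made of these shares, and the genes were chosen by their change.

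The promoter of Chac1, the gene with the smallest adjusted p, is shown because it was the only one of 6 promoters read that held a match. These 6 belonged to the 4 largest named rises and 2 largest named falls with a promoter in the table, which lacks Slc7a3. The other genes were Npas4, Fos, Stc2, Pdzph1 and Bcan. The Chac1 promoter lies at chr2:119350992-119351291 on the plus strand, and the capitals mark the loose composite site, read on the opposite strand, 194 bases before the start.
Chac1: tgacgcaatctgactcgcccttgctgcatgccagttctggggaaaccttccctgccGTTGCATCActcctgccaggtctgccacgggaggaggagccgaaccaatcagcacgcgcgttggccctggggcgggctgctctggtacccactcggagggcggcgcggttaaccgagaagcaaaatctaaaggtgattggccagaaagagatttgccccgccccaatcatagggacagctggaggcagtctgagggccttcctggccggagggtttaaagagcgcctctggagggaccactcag

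Short windows of other risers with a match are shown to compare the sites side by side, a choice made after the search. Each window has 8 bases on either side of the 9-base site in capitals, and is written 5′ to 3′ on the strand that carries TGATG. The sites of Aars, Iars and Nupr1 have the exact form. The Asns site lies 23 bases before the start of its gene, on the coding strand, and the 2 Slc7a11 sites lie 66 and 48 bases before its start, on opposite strands.
Aars, chr8:111033729-111033737: ggctcggcTGATGCAATgctcaaga
Iars, chr13:49682136-49682144: tctggaggTGATGCAATactgacag
Nupr1, chr7:126625573-126625581: gccctgtcTGATGCAATctggccct
Slc7a11, chr3:50443671-50443679: catgtggcTGATGCAAAcctggaga
Slc7a11, chr3:50443653-50443661: ctgcatgaTGATGCAAAttctccag
Jdp2, chr12:85599383-85599391: gccggggcTGATGCAACccgtcccg
Slc1a4, chr11:20332710-20332718: gctggagaTGATGCAACgcaggagg
Herpud1, chr8:94386316-94386324: gtgcgggcTGATGCAACccgccgtg
Asns, chr6:7693224-7693232: cagccacaTGATGAAACttcccgca
Gars, chr6:55037970-55037978: ccggtgcaTGATGAAATagcgcagc
Trib3, chr2:152344039-152344047: cgcccggcTGATGTAAAcctgagct

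**Figure D3:**
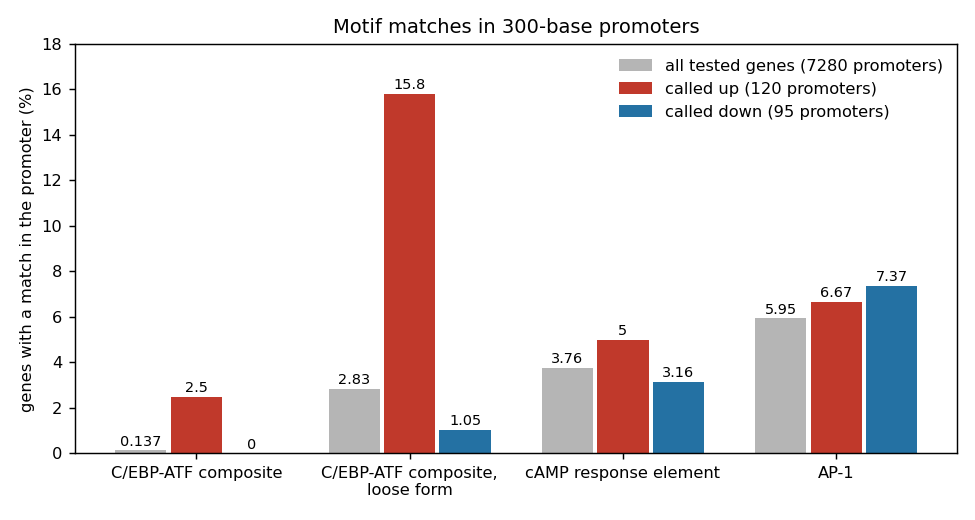
Share of genes (y axis, percent) with at least 1 match to each of 4 motifs (x axis) in the 300-base promoter, for all tested genes (grey), genes called up (red) and genes called down (blue). The loose composite site is at 15.8% in risers against 2.83% of tested genes, while the cAMP response element and the AP-1 site lie within 2 percentage points of all tested genes in each set.

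Genes induced by neuronal activity were the second group of large rises. Of 17 transcription regulators, 5 rose (29.4%, against 1.58% of all genes) and 0 fell (median 0.54). Of 23 effectors and secreted factors 7 rose (30.4%) and 0 fell (median 0.13). Npas4, a factor induced by calcium entry through neuronal channels, read 5.34, 5.53 and 5.21 on the untreated arrays and 8.08 and 8.22 with HCA. It was detected on 1 untreated array and both HCA arrays, and rose by 2.88 ± 0.26 (adjusted p = 7.1e-05), the largest change of the table. Fos, the classic immediate early gene, read 7.30, 7.26 and 6.54 and 9.40 and 10.13 and rose by 2.63 ± 0.25 (adjusted p = 9.5e-05). The outlier array was higher still for both, at 8.84 and 10.37. The nuclear receptor gene Nr4a2, the leucine zipper gene Nfil3 and the stress gene Ier3 rose by 0.73 ± 0.14, 0.67 ± 0.088 and 0.55 ± 0.13. Npas4, Fos and Nfil3 held with any 1 array left out, and the 5 calls became 3 without HCA array 1. Crem (0.79 ± 0.20, adjusted p = 0.051) was not called, nor was Fosb (adjusted p = 0.062), which was not detected on untreated arrays and was at least 1.01-fold higher. Other immediate early genes gave no call in either direction: Egr1 was at -0.30 ± 0.25 and Egr2 at 0.11 ± 0.28, while Egr3 was not detected in either group. Arc, a synaptic plasticity gene, was detected on 2 untreated and 0 HCA arrays and was at least 1.08-fold lower (adjusted p = 0.63). Egr1 ranged from 9.45 to 11.10 on the untreated arrays alone.

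Bdnf, the brain-derived neurotrophic factor, led the effectors. It read 6.41, 5.85 and 5.72 untreated and 8.15 and 8.10 with HCA and rose by 2.12 ± 0.23 (adjusted p = 2.8e-04), with the outlier array at 8.27. Secreted peptides and granule proteins followed. Vgf rose by 1.86 ± 0.27 (adjusted p = 0.0024), Scg2 by 1.30 ± 0.19, Cartpt by 1.19 ± 0.22 and Adcyap1, which encodes the peptide PACAP, by 1.00 ± 0.18. For Vgf the untreated arrays spread from 7.14 to 8.30, and the change was 1.25 in pair 1 against 2.18 in pair 2. Rgs4, which shortens signalling by receptor-coupled G proteins, rose by 1.29 ± 0.18, and the stress kinase gene Plk3 by 0.60 ± 0.11. Homer1 (0.082 ± 0.066), Nptx2 (0.16 ± 0.15), Inhba (-0.42 ± 0.16) and Rgs2 (-0.33 ± 0.16) were not called. Crhbp, the binding protein of corticotropin-releasing hormone, and Pam, which amidates neuropeptides, were in no list and chosen after their values were seen, and rose by 1.19 ± 0.22 and 0.59 ± 0.14. Most of the 7 effector calls were lost without HCA array 2, which leaves 1 HCA array, and so were most calls over all genes. With any 1 of the 5 arrays left out, the change was at least 1.99 for Bdnf, 1.64 for Vgf and 1.16 for Scg2. It was at least 0.86 for Cartpt, 0.95 for Adcyap1, 1.09 for Rgs4 and 0.52 for Plk3. Over both activity lists 12 calls became 5 without HCA array 2 and 8 without HCA array 1.

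Genes of synaptic transmission gave single calls. The glutamate transporter Slc1a2, which clears glutamate and is also an astrocyte marker, read 6.46, 5.99 and 5.57 untreated and 7.54 and 8.44 with HCA and rose by 2.00 ± 0.38 (adjusted p = 0.013). Its change was 1.08 in pair 1 and 2.45 in pair 2, and its call, like that of Gria3, was lost without HCA array 2 or untreated array 2. Of the other 9 astrocyte markers tested, 8 were below 0, Slc1a3 at -0.44 ± 0.14, Fabp7 at -0.70 ± 0.19 and Aqp4 at -0.53 ± 0.27 among them, and none was called. Of 8 glutamate receptor subunits 1 rose, the AMPA receptor subunit Gria3 (0.81 ± 0.14, adjusted p = 0.011), while Gria1 and Gria2 had -0.098 ± 0.14 and 0.26 ± 0.11. The GABA-A receptor subunit Gabrb1 rose by 0.95 ± 0.14 (adjusted p = 0.0035), the 1 call among 7 GABA and glycine receptor subunits (14.3%). All 7 were above 0, with a median of 0.26. For Gabrb1 the outlier array at 7.03 lay within the untreated values of 7.32, 6.94 and 6.78. Cacng5, a regulatory subunit of AMPA receptors, was the 1 call among 52 channel subunits (1.92%, near the 1.58% of all genes). It read 7.97, 7.80 and 7.78 untreated and 8.91 and 9.01 with HCA, a rise of 1.15 ± 0.11 (adjusted p = 1.3e-04) that held with any 1 of the 5 arrays left out. Rem2, an activity-regulated inhibitor of calcium channels, and Lgi1, a secreted synaptic protein, were chosen after their values were seen and rose by 0.82 ± 0.12 and 0.80 ± 0.13. None of 39 synaptic vesicle genes, 22 postsynaptic genes, 13 GABAergic genes or 14 neuron markers was called in limma, and the medians of these lists were 0.024, -0.03, 0.024 and 0.017.

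Of 30 glutathione genes 3 rose (10%, against 1.58% of all genes) and 0 fell. They were Chac1, Slc7a11 and Slc3a2, of which Slc7a11 and Slc3a2 also belong to the amino acid transporters, and the list median was -0.0064. The enzymes that make glutathione were not called, with Gclm at 0.33 ± 0.14 and Gss at 0.49 ± 0.19, and Gclc did not pass the filter. Of 21 genes of NRF2, the main regulator of antioxidant genes, and its targets, 2 rose (9.52%), Slc7a11 and Hmox1. Hmox1, which degrades haem, read 6.51, 6.21 and 6.22 untreated and 7.99 and 6.95 with HCA and rose by 1.20 ± 0.22 (adjusted p = 0.011). HCA array 1 was the higher, by about 1 log2 unit, and the call was lost without it. Nqo1, often used as a readout of NRF2, had -0.58 ± 0.21 (adjusted p = 0.17), and Txnrd1 and Srxn1 had 0.062 ± 0.25 and -0.31 ± 0.095. None of 17 peroxiredoxins, thioredoxins and superoxide dismutases was called in limma, against 2.82% of all genes, and 13 of them were below 0. Tfrc, the transferrin receptor through which iron enters, rose by 0.70 ± 0.11 (adjusted p = 0.0045), from 11.77, 11.38 and 11.30 to 12.29 and 12.21, the 1 call among 17 iron genes, lost without either HCA array. Uros, an enzyme of haem synthesis, fell by 0.58 ± 0.11 (adjusted p = 0.016).

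Targets and regulators of p53 rose in 5 of 24 cases (20.8%, against 1.58% of all genes), with a median of 0.21. Besides Sesn2 and Plk3 these were Cdkn1a, the inhibitor of cyclin-dependent kinases, Bbc3, which encodes the death protein PUMA, and Gadd45a, a stress sensor. Cdkn1a read 9.30, 9.10 and 8.72 untreated and 9.79 and 9.71 with HCA and rose by 0.57 ± 0.089 (adjusted p = 0.0045). Bbc3 rose by 0.51 ± 0.11 (adjusted p = 0.028) and Gadd45a by 0.41 ± 0.096 (adjusted p = 0.042). Further probes of Cdkn1a had 0.52 and 0.47, those of Bbc3 0.11 and 0.30, and that of Gadd45a 0.23. Mdm2 (-0.045 ± 0.11), Ccng1 (0.24 ± 0.16) and Phlda3 (0.23 ± 0.13) were not called. The median was -0.024 without HCA array 1. The count of 5 fell to 1 without either HCA array, that of Sesn2, and to 3 without any of the 3 untreated arrays. Bbc3 was also the 1 call among 27 death regulators (3.7%), where Bcl2l1, Mcl1 and Bcl2l11 had 0.48 ± 0.15, -0.14 ± 0.10 and -0.19 ± 0.089.

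Oxygen sensing genes and HIF targets were described by list. None of the 8 tested genes of the HIF hydroxylases and HIF subunits was called in limma. At 2.82% of all genes called, a list of 8 would hold few calls in any case. Egln1 had 0.019 ± 0.18, Egln2 -0.22 ± 0.15, Egln3 -0.53 ± 0.14 (adjusted p = 0.058) and Hif1a 0.080 ± 0.20. Egln3 read 7.82, 8.05 and 7.88 untreated and 7.26 and 7.55 with HCA, without overlap. Of 36 glycolysis enzymes and HIF targets 2 rose and 1 fell (5.56% and 2.78%, against 1.58% and 1.24% of all genes). Vegfa, the vessel growth factor, read 9.63, 9.33 and 9.31 and 10.65 and 10.46 and rose by 1.12 ± 0.11 (adjusted p = 1.5e-04), and the other riser was Ddit4. Ndrg1 fell by 0.35 ± 0.084 (adjusted p = 0.046). The glycolytic genes Pgk1, Hk1, Slc2a3, Pkm and Aldoc had 0.33 ± 0.21, 0.31 ± 0.17, 0.29 ± 0.11, -0.21 ± 0.096 and -0.31 ± 0.17, and the list median was -0.000761.

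Several rises were single or paired calls in their lists. Stc2, a secreted glycoprotein induced by stress, read 5.49, 5.65 and 5.02 untreated and 7.64 and 7.44 with HCA and rose by 2.14 ± 0.19 (adjusted p = 7.1e-05). Herpud1, which takes part in degradation at the endoplasmic reticulum, rose by 0.79 ± 0.082 (adjusted p = 1.9e-04), while the chaperone genes Pdia4, Calr, Hyou1 and Dnajb9 had 0.20 ± 0.12, 0.13 ± 0.18, -0.097 ± 0.22 and -0.058 ± 0.081. Hspa9, the mitochondrial Hsp70, rose by 0.36 ± 0.069, the 1 call of 22 heat shock genes (4.55%). Idh2, mitochondrial isocitrate dehydrogenase, rose by 0.49 ± 0.093, the 1 call of 20 genes of the tricarboxylic acid cycle (5%). Among all genes 1.58% were called up. The calls of Hspa9 and Idh2 were lost without either HCA array, Hspa9 also without untreated array 2 and Idh2 without untreated array 1. The clock genes Ciart and Per1 rose by 1.19 ± 0.24 and 0.71 ± 0.13, and Per2 and Arntl had 0.19 ± 0.10 and -0.19 ± 0.13. Both clock calls were lost without either HCA array. Of 41 lysosome genes Scarb2, which delivers glucocerebrosidase, and Neu1, a sialidase, rose by 0.40 ± 0.077 and 0.39 ± 0.085. That is 4.88% of the list, against 1.58% of all genes. The count of 2 was 0 without HCA array 1, HCA array 2 or untreated array 2, without the block and under median scaling, and 1 without untreated array 1 or 3. Cyb5r2, a cytochrome b5 reductase, was not detected on untreated arrays, read 6.42 and 6.37 with HCA and was at least 1.66-fold higher, though the outlier array read 4.98 and the call was lost without HCA array 2. Cholesterol genes gave 0 calls among 19 in limma, against 2.82% of all genes. Of their values 18 were above 0, with a median of 0.22 and Insig1 highest at 0.83 ± 0.34 (adjusted p = 0.23).

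**Figure D4:**
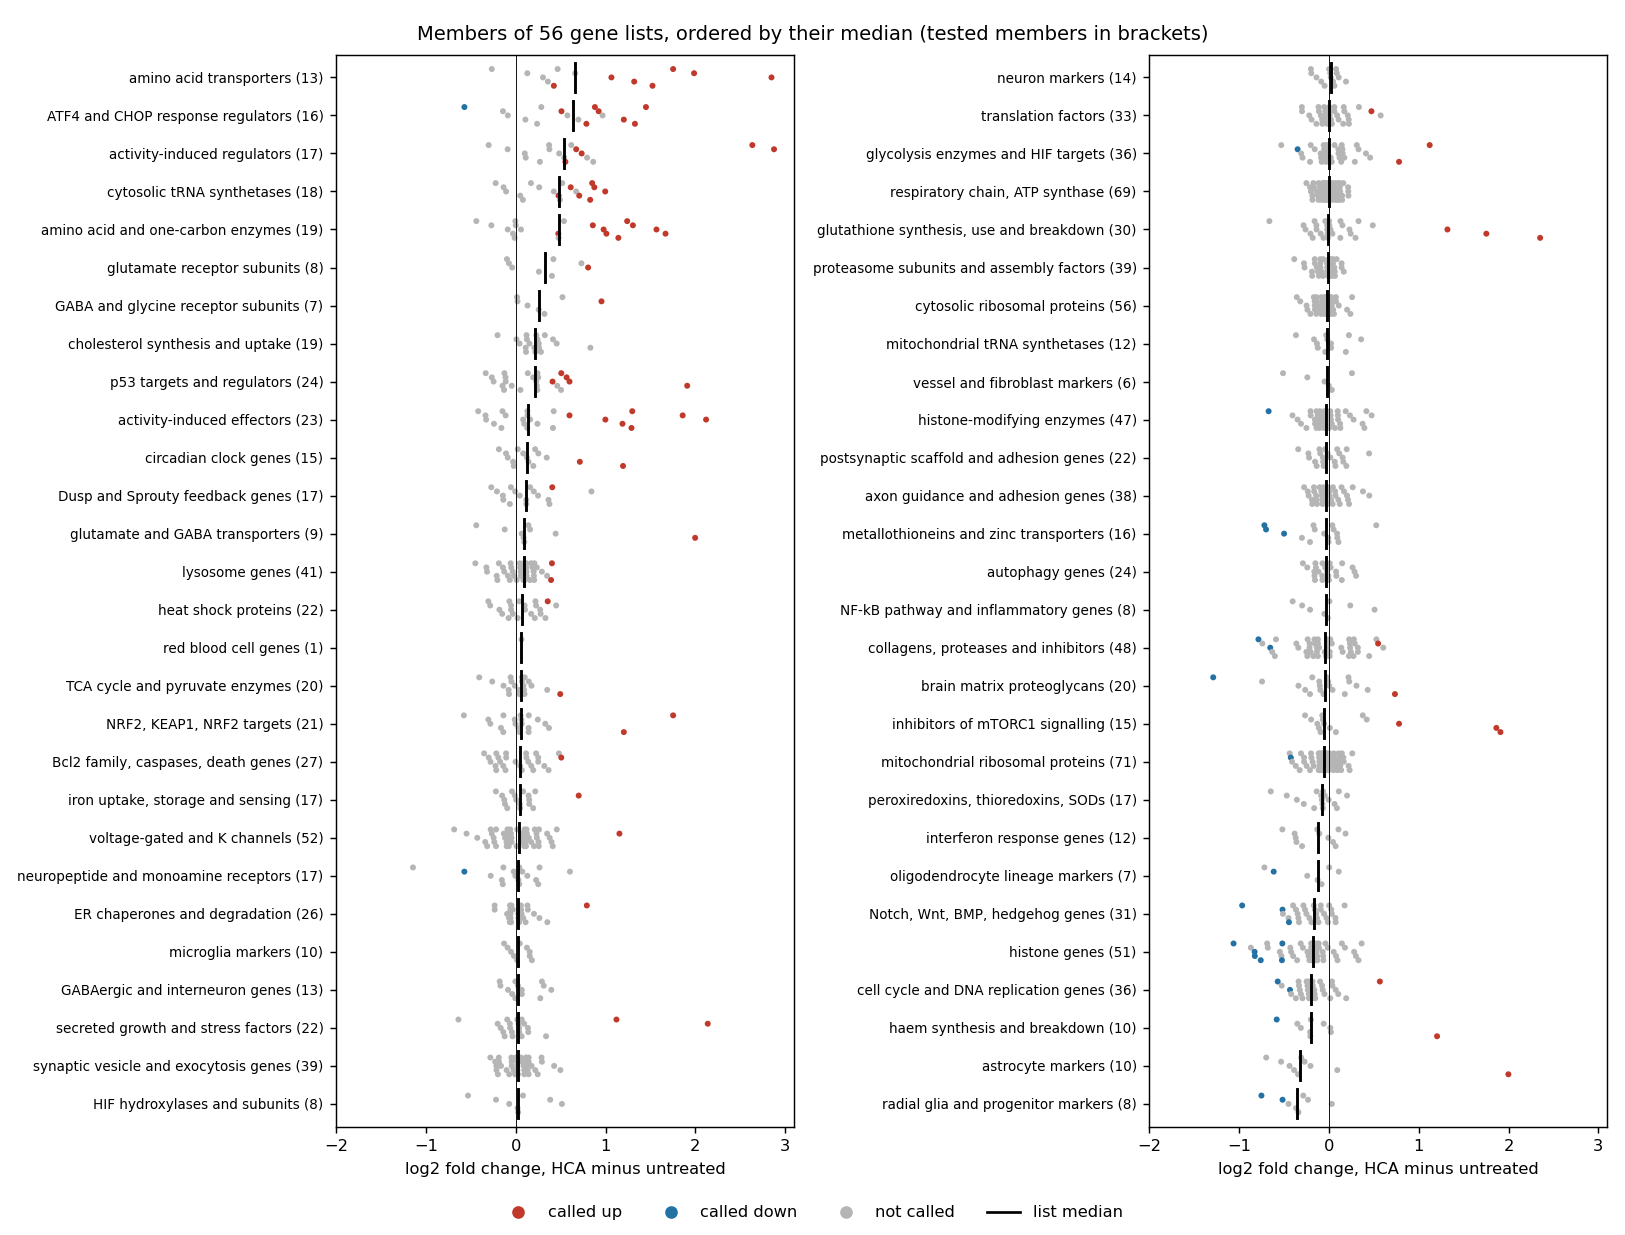
Log2 fold change of HCA minus untreated (x axis) for the tested members of 56 gene lists (y axis), ordered by list median; each point is a gene, red where called up, blue where called down and grey otherwise, and a black bar marks the median. The lists of amino acid transporters, ATF4 and CHOP regulators, activity-induced regulators, cytosolic synthetases and amino acid enzymes stand at the top with medians of 0.48 to 0.66, and radial glia and astrocyte markers lie lowest at -0.35 and -0.33.

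The falls were smaller than the rises, and 4 of the 111 held with any 1 of the 5 arrays left out. Pdzph1, a gene whose role is little described, fell most, by 1.65 ± 0.32 (adjusted p = 0.016). It read 6.93, 8.07 and 7.70 untreated and 5.92 and 5.80 with HCA, with a change of -1.01 in pair 1 and -2.28 in pair 2. Bcan encodes brevican, a proteoglycan of the brain matrix made by glial cells and their precursors. It read 7.70, 8.57 and 8.61 untreated and 7.18 and 6.66 with HCA and fell by 1.29 ± 0.29 (adjusted p = 0.036), the 1 fall among 20 brain matrix genes beside a rise of Spock3 (0.73 ± 0.16), and its call held in 1 of the 5 fits that left out an array, that without untreated array 1. Dct, an enzyme of melanin synthesis, read 6.30, 6.76 and 7.24 and 5.56 and 5.18 and fell by 1.13 ± 0.19. Prelp, a matrix protein, fell by 1.09 ± 0.15 (adjusted p = 0.0019), and Fam53b was not detected on HCA arrays and was at least 1.94-fold lower (adjusted p = 0.0016). Without the block the call of Prelp was lost (adjusted p = 0.63 in limma) and that of Fam53b stayed. Lypd10 fell by 1.09 ± 0.13 (adjusted p = 7.7e-04), but its level followed the replicate number: 9.57, 6.42 and 9.28 untreated and 8.69 and 5.13 with HCA, so that both arrays of number 2 were low and the groups overlapped. Rprml was at least 1.96-fold lower and not detected with HCA. The call of Rprml held in none of the fits that left out an array. Prokr1, a prokineticin receptor, fell by 1.02 ± 0.20, Tril, a co-receptor of innate signalling, by 0.94 ± 0.18, Ly6g6e by 0.94 ± 0.18 and the scaffold gene Iqgap2 by 0.81 ± 0.15. These 4 and Pdzph1 lost their calls without HCA array 1, HCA array 2 or untreated array 2.

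Of 8 tested markers of radial glia and progenitors 2 fell (25%, against 1.24% of all genes), 0 rose and 7 were below 0 (median -0.35). Nes, which encodes the filament protein of neural stem cells, read 9.39, 9.75 and 9.28 untreated and 8.61 and 8.97 with HCA and fell by 0.75 ± 0.11 (adjusted p = 0.0032). A second Nes probe had -0.29 ± 0.15. The difference of the probe described was the same in both pairs, -0.78 and -0.78, and the call was lost without HCA array 1. The count of 2 was then 0, and 1 without any of the other 4 arrays. Hes5, a Notch target that keeps progenitors from differentiating, fell by 0.52 ± 0.11 (adjusted p = 0.023), and Vim, Hes1 and Notch1 had -0.37 ± 0.15, -0.45 ± 0.12 and -0.34 ± 0.19. Sox2, the remaining positive member, had 0.031 ± 0.18. The summed normalized intensity of the progenitor markers with HCA over that of the same-numbered untreated array was 0.771 in pair 1 and 0.838 in pair 2, against 0.968 and 1.05 for neuron markers. For the oligodendrocyte lineage it was 0.748 and 0.685, and its factor Olig1 fell by 0.62 ± 0.094 (adjusted p = 0.0035), a call lost without HCA array 2. For astrocyte markers it was 0.898 and 0.754, for microglia markers 0.991 and 1.05. The part of such cells in the other falls was not tested.

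Of 31 genes of the Notch, Wnt, BMP and hedgehog pathways, 3 fell (9.68%, against 1.24% of all genes) and 0 rose. Of the 31, 25 were below 0 (median -0.17). The fallers were Hes5, the Notch feedback gene Nrarp (-0.45 ± 0.091, adjusted p = 0.020) and the ligand gene Wnt3a (-0.97 ± 0.20, adjusted p = 0.023). Wnt3a read 6.38, 7.16 and 5.18 untreated and 5.73 and 5.65 with HCA, and untreated array 3 lay below both HCA arrays. The count of 3 was 0 without HCA array 2 or untreated array 2 and 1 without HCA array 1 or untreated array 1. Smo, the hedgehog signal transducer, Tcf7l1, a Wnt pathway repressor, Sox21, a progenitor factor, and Ednrb, the endothelin B receptor, fell by 0.50 ± 0.10, 0.66 ± 0.090, 0.64 ± 0.085 and 0.57 ± 0.096. The first 3 of these were outside the lists and were chosen after their values were seen. Sox21 read 11.21, 11.77 and 11.67 untreated and 10.71 and 11.02 with HCA.

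Of 36 genes of the cell cycle and DNA replication 29 were below 0 (median -0.20) and 2 fell (5.56%, against 1.24% of all genes). The 2 called fallers were Cdc20, an activator of the anaphase complex (-0.43 ± 0.086, adjusted p = 0.016), and Ccne1, cyclin E1 (-0.57 ± 0.14, adjusted p = 0.048), while Cdkn1a rose. Top2a, Birc5, Pcna and Tyms had -0.37 ± 0.12, -0.33 ± 0.087, -0.33 ± 0.21 and -0.42 ± 0.13 and were not called. Called fallers outside the lists, chosen after their values were seen, were the mitotic kinesin genes Kif15 (-0.54 ± 0.083) and Kif4 (-0.40 ± 0.086), the transcription factor gene Mybl2 (-0.67 ± 0.11), the mitotic kinase gene Pbk (-0.56 ± 0.090), the cyclin gene Ccnf (-0.73 ± 0.16) and the pocket protein gene Rbl1 (-0.54 ± 0.10). The 2 falls became 0 without any 1 of the 5 arrays except untreated array 3, where 1 was left. With the outlier array included, 7 of the 36 fell.

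Of 51 histone genes 6 fell (11.8%, against 1.24% of all genes) and 0 rose, with a median of -0.18 and 42 below 0. H2ac7 read 12.94, 12.79 and 12.87 untreated and 11.94 and 12.08 with HCA and fell by 0.83 ± 0.14 (adjusted p = 0.0063), and H2ac11, H2ac12, H2ac15, H2ac10 and the linker histone gene H1f2 fell by 1.06 ± 0.24, 0.83 ± 0.16, 0.76 ± 0.17, 0.52 ± 0.13 and 0.52 ± 0.11. These H2a genes are near-identical copies, so their probes may share signal and the calls are not independent. The outlier array read 12.63 for H2ac7 and 10.43 for H2ac11, nearer to the untreated than to the HCA values, which for H2ac11 were 8.91 and 9.51 against 10.40, 10.42 and 10.25 untreated. The count was 0 without either HCA array, 1 and 2 without untreated arrays 1 and 2, and 10 without untreated array 3. Among 47 histone-modifying enzymes Hdac1, a class I histone deacetylase, fell by 0.67 ± 0.14 (adjusted p = 0.021), from 9.45, 9.49 and 9.48 to 8.95 and 8.64. It was the 1 call of its list (2.13%, against 1.24% of all genes called down). The Hdac1 call was lost without HCA array 1, HCA array 2 or untreated array 2.

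Metallothioneins and zinc transporters had 3 falls among 16 genes (18.8%, against 1.24% of all genes), with a list median of -0.032. Mt1, which binds zinc and copper, read 12.51, 12.86 and 12.54 untreated and 11.93 and 12.41 with HCA and fell by 0.50 ± 0.092 (adjusted p = 0.012), and the brain form Mt3 fell by 0.70 ± 0.17 (adjusted p = 0.046). Slc30a10, a manganese and zinc exporter, fell by 0.72 ± 0.12 (adjusted p = 0.0076), while Mt2 had -0.30 ± 0.26. Without HCA array 1 the count was 0, and it was 1 without HCA array 2 or untreated array 2. In the collagen and protease list of 48 genes 2 fell and 1 rose (4.17% and 2.08%, against 1.24% and 1.58% of all genes). Loxl1, which cross-links elastin, and Adamts18, a protease, fell by 0.79 ± 0.13 and 0.65 ± 0.14, and Col26a1 rose by 0.55 ± 0.100. These 3 calls were lost without either HCA array, and 1 of the 2 falls without untreated array 1 or 3.

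Among 69 respiratory chain and ATP synthase genes, 56 cytosolic ribosomal proteins, 39 proteasome genes and 24 autophagy genes 0 were called in limma, and list medians lay between -0.032 and -0.0056. Of 71 mitochondrial ribosomal proteins 1 fell (1.41%, against 1.24% of all genes), Mrpl33 (-0.43 ± 0.097, adjusted p = 0.037). At these background shares lists of such sizes would hold few calls in any case. None of 12 interferon response genes, 8 genes of the NF-kB pathway and 10 microglia markers was called in limma, with medians of -0.12, -0.033 and 0.029. The same held for 38 axon guidance genes and 6 vessel and fibroblast markers. Of 17 neuropeptide and monoamine receptors Ednrb was the 1 call (5.88%, against 1.24% of all genes called down). Mc4r, a melanocortin receptor, read 6.10, 7.18 and 7.10 untreated and 5.53 and 5.55 with HCA (-1.14 ± 0.29, adjusted p = 0.058).

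The same HCA treatment was also given with adaptaquin, and the difference of the HCA effect was tested for each gene on arrays not shared by the 2 effects. At 0.1 µM 0% of genes were called different from the effect without adaptaquin, and at 1 µM also 0% (limma, 331 and 333 genes at an unadjusted p under 0.05). At 1 µM the smallest p belonged to Cdkn1a, which changed by 0.57 ± 0.089 without adaptaquin and by -0.27 ± 0.078 with it, a difference of -0.83 ± 0.12 (adjusted p = 0.094). Sesn2 had an effect of 0.70 ± 0.14 at 1 µM, a difference of -1.21 ± 0.21 (adjusted p = 0.29). At 0.1 µM the smallest p belonged to Cldn9, a tight junction gene, not detected with HCA alone, where it was at least 1.28-fold lower (adjusted p = 0.099), with a fitted difference of 1.10 ± 0.18 (adjusted p = 0.31). The median HCA effect of the amino acid transporters was 0.66 without adaptaquin, 1.16 at 0.1 µM and 0.45 at 1 µM, and that of the regulators 0.64, 0.47 and 0.47. For progenitor markers it was -0.35, -0.52 and -0.36, and for histone genes -0.18, -0.14 and -0.15. A p above the threshold does not show that the effects were alike, and Cdkn1a was called at 1 µM with values not corrected for background, in the authors' deposited log2 table and with the outlier array included.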

How the data were processed

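RNA of cultured mouse neurons was extracted with Trizol, cleaned on columns with DNase I, amplified to labelled cRNA and hybridised to Illumina MouseRef-8 arrays, per the labels' protocols. The scanner software is not given in the sources used here. The deposited table holds, per the file headers, a probe intensity that is not normalized and a detection p-value for 25697 probes on 18 arrays. A second deposited table holds log2 values, which equalled quantile normalization of the log2 intensities to within 5.0e-09 and served as an alternative. Of the probes, 23978 had 1 gene symbol in the platform annotation, 0 had several and 1719 had none; 23962 matched RefSeq.

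Intensities were background-corrected by detection p-value and quantile-normalized over the 18 arrays with neqc (limma 3.58.1, R 4.3.3, offset 16). Probes with detection p under 0.01 on at least 2 of 17 arrays were kept (12991 probes), and the brightest probe with a symbol represented its gene. One linear model held the 6 groups and the replicate number on 17 arrays, with limma's moderated test (9 residual and 3.49 prior degrees of freedom) and Benjamini-Hochberg adjustment over 8922 genes. A change is HCA minus untreated in log2 units, ± its standard error from that fit. A gene with no detected array in a group has only a bound, "at least N-fold": the other group's mean against the mean of, per array, the higher of the lowest detected signal and its own value. Deviations from group means of same-numbered arrays correlated in all 40 pairs (r 0.238 to 0.626). The highest r among 80 other pairs was 0.061. Deviations within a group cancel out, so part of this contrast was fixed in advance and the pairs are not independent. The labels do not say what the replicate number stands for. The number of arrays limits the precision.

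The genes described were the 15 largest called rises and falls, called list members, the largest values of each list and a fixed set of 24. Most called genes outside these rules are marked as chosen after their values were seen. Some list members that were not called, such as Shmt1, Mthfd1, Aldh1l1 and Kars, met no rule. They are not marked and were picked by hand. The comparison, the lists and these genes were chosen with earlier results of these data known. Another scaling, background correction, filter and probe rule, the fit without the block, the outlier array and leaving out each array were tried. The programs were tested on simulated data.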

Additional observations from a re-analysis of the deposited data

How the results depend on the processing

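The 252 called genes kept their sign under every alternative run, except 1 of 252 without the replicate block and with 5 arrays and no block. Where detection on every array of a group was required, 249 of 249 tested kept it. These runs reused arrays that chose the genes, so the kept signs lend the calls no support. The replicate number served as a block, and the fit without this block called 54 genes up and 13 down. Median scaling called 86 up and 37 down, and the fit that included the outlier array called 243 and 226. Without background correction 210 rose and 228 fell, and 211 and 228 in the authors' deposited log2 table. Fits on the 5 arrays alone called 25 up and 1 down with the block (Rprml, -1.07, adjusted p = 0.049 in limma) and 21 up and 1 down without it (Ly6g6e, -1.06, adjusted p = 0.04 in limma). Leaving out 1 array gave 44 to 115 rises, lowest without HCA array 2, and 12 to 92 falls. Normalizing 17 arrays, averaging probes, or changing the detection filter gave 114 to 172 rises and 78 to 147 falls. The difference of the HCA effect at 1 µM adaptaquin had 1 call, Cdkn1a, without background correction, in the authors' deposited log2 table and with the outlier array. Of the 105 named called genes 43 stayed called without the block, 70 under median scaling and 40 to 89 with 1 array left out. With 2 HCA arrays the falls in particular depended on each array: 83 of 111 were called in at most 2 of the 5 fits that left one out, against 67 of 141 rises. No depth can be given for arrays, and dim genes had bounds alone.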

Other observations

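Some called genes belonged to no list and no naming rule and were chosen after their values were seen. Cox6a2, a subunit of cytochrome oxidase found in interneurons and muscle, read 7.15, 5.71 and 6.04 untreated and 7.99 and 7.37 with HCA and rose by 1.34 ± 0.23 (adjusted p = 0.0073). Nxph4, a secreted ligand of neurexins, rose by 1.19 ± 0.23, though untreated array 3 at 7.33 was above HCA array 2 at 7.27. Gch1, which starts synthesis of the cofactor tetrahydrobiopterin, rose by 0.59 ± 0.14. Vldlr, a receptor of reelin, rose by 0.45 ± 0.098. Tsc22d3, a glucocorticoid-induced leucine zipper gene, rose by 0.39 ± 0.079 (adjusted p = 0.020). Mfsd2a, a carrier of lysophospholipids, fell by 0.44 ± 0.083 (adjusted p = 0.014). Of these 6, Cox6a2 lost its call without HCA array 2, and the other calls were each lost in at least 3 of the 5 fits that left out an array, among them those without either HCA array.

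Of the 101 further probes for 82 called genes that passed the filter, 94 had the sign of the probe described. The other 7 had the opposite sign, those of Bcat1, Egfl7, Eif2d, Ncaph2, Pde4dip, Shisa2 and Ttyh1. A shared sign covers changes of unlike size. A second Mybl2 probe had -0.12 against -0.67 for the probe described, and one of Vegfa 1.70 against 1.12. Of the 120 risers with a promoter, 8 held the AP-1 letters and 6 the cAMP response element. Bdnf, a riser outside the amino acid lists, held both the AP-1 site and the loose composite site within its 300 bases, and Scg2 and Cartpt held the cAMP response element.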
